A study of Mus musculus with 6 samples.

Results

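The 10 genes described here encode enzymes of branched-chain amino acid breakdown and the enzymes that switch it on and off: *Bcat1*, *Bcat2*, *Bckdha*, *Bckdhb*, *Dbt*, *Bckdk*, *Ppm1k*, *Hibch*, *Mccc1* and *Mccc2*. They were picked by symbol from the 55401 genes of the count files, and all 10 passed the filter on low counts. Total RNA had been sequenced from subcutaneous white adipose tissue (scWAT) of 8 weeks old male mice kept at room temperature. The 3 control mice carried floxed *Yap* and *Taz* alleles without Cre recombinase and are called YT-FF here, after the study's methods, although the sample labels give their genotype as WT. The 3 other mice carried the same floxed alleles and Cre under the *Adipoq* promoter (YT-AKO), which is active in mature adipocytes and leaves the other cells of the tissue undeleted. The RNA came from whole tissue, so fewer cells of a type and less RNA per cell cannot be told apart.

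Leucine, isoleucine and valine are broken down in mitochondria. An aminotransferase first moves the amino group to another keto acid, and the branched-chain keto acid dehydrogenase (BCKDH) complex then removes carbon dioxide in a step that cannot be reversed. A kinase, *Bckdk*, phosphorylates and inactivates the complex, and a phosphatase, *Ppm1k*, removes the phosphate. The products end as acetyl-CoA, acetoacetate or propionyl-CoA, and white and brown fat are both known sites of this breakdown.

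The totals of counted fragments were 17740987 to 21838493 per library. As a check of the labels, *Yap1*, which encodes YAP, had counts of 1622, 1300 and 1295 in YT-FF against 649, 492 and 529 in the libraries labelled YT-AKO (log2 fold change -0.98). *Wwtr1*, which encodes TAZ, had counts of 1818, 1729 and 1918 in YT-FF against 3015, 2253 and 2716 in YT-AKO (log2 fold change 0.89). *Wwtr1* RNA therefore went against the label when counted over the whole gene, and every direction below is that of the libraries as labelled. By immunoblot, a measure of protein and not of RNA, the study reported less YAP and TAZ in scWAT of YT-AKO mice. YT-AKO 2 stood apart from the other libraries. The SD over genes of its log2 deviations from its group mean was 0.518, against 0.219 to 0.369 in the other libraries. Short genes held more of its counts. Among the tested genes, Spearman's rho between those deviations and log2 exon length was -0.32 in YT-AKO 2 and 0.288 and 0.241 in YT-AKO 1 and 3. The log2 fold change between the groups also fell with log2 exon length over the tested genes. For this trend Spearman's rho was -0.38 with all 6 libraries and -0.28 without YT-AKO 2. Each rho here is across genes, which are not independent replicates.

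Promoter windows were taken from RefSeq (GRCm38.p6) for the kinase, the phosphatase and *Bckdhb*, because these are a pair with opposite roles that moved in opposite directions and a subunit that moved with the kinase. Each window runs from 250 bases before to 50 after the start of the gene, 5′ to 3′ on the gene's strand. Capitals mark AGGTCA, the core bound by many nuclear receptors, and GGGCGG, the GC box, on either strand. The windows are chr7:127903823-127904122 on the plus strand for *Bckdk*, chr6:57535438-57535737 on the minus strand for *Ppm1k* and chr9:83924887-83925186 on the plus strand for *Bckdhb*.
Bckdk: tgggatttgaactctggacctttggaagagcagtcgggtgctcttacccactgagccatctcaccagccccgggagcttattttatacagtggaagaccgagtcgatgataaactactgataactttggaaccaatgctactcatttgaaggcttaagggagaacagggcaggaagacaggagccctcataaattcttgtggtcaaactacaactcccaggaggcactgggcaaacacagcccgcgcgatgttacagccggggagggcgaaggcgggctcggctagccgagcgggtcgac
Ppm1k: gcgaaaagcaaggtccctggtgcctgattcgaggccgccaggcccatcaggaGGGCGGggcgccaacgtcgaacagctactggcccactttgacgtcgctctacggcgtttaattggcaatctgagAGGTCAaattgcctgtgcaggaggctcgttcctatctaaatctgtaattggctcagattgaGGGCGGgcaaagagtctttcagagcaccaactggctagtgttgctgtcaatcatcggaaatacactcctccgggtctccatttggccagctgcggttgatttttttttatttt
Bckdhb: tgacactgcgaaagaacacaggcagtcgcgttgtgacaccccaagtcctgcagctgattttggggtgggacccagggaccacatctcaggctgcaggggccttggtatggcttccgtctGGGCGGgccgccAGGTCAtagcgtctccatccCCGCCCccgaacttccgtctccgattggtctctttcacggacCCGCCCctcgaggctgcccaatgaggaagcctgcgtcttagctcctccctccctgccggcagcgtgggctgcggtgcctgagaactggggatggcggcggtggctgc
The *Bckdk* window had neither motif, while the *Ppm1k* window had AGGTCA and 2 GC boxes and the *Bckdhb* window printed here had AGGTCA and 3 GC boxes. The other window of *Bckdhb*, at chr9:83948531-83948830 on the plus strand, had none of the motifs searched. Entries were found for 9 of the 10 genes, with 12 windows. AGGTCA was in 3 of these 12 windows (1 each of *Bcat1*, *Bckdhb* and *Ppm1k*), against 16.3% of all 32851 windows of the same length. GGGCGG was in 4 of the 12 (1 each of *Bckdhb*, *Hibch*, *Mccc1* and *Ppm1k*), against 35.7% of all windows. GGAATG, the core bound by TEAD, the DNA-binding partner of YAP and TAZ, was in none of the 12 and in 14.7% of all windows. TTGCNNAA, a C/EBP core, was in none of the 12 and in 10.8% of all windows. All motifs were searched on both strands, and a match or its absence describes these letters alone.

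The comparison of the genotypes asked how RNA of these enzymes differed between tissue with intact and with adipocyte-deleted *Yap* and *Taz*. Levels of *Bcat2*, *Bckdk* and *Bckdhb* in the YT-AKO libraries were 2.24, 2.19 and 1.92 times those of YT-FF, the carboxylase genes *Mccc1* and *Mccc2* rose less, and the phosphatase *Ppm1k* was lower. This order changed with a correction for gene length. The log2 fold changes were then 1.23 for *Bcat2*, 1.16 for *Bckdk* and 0.62 for *Bckdhb*. Those of *Mccc1*, *Mccc2* and *Ppm1k* were 1.17, 0.66 and -0.37. At an adjusted p under 0.05 by edgeR's quasi-likelihood test (Benjamini-Hochberg over all tested genes), 6 of the 10 were called, 5 higher (*Bcat2*, *Bckdhb*, *Bckdk*, *Mccc1* and *Mccc2*) and 1 lower (*Ppm1k*). Of all 16807 tested genes 21.6% were called, 12.6% higher and 9.01% lower. The median log2 fold change of the 10 genes was 0.64, with a range of -0.59 to 1.16, and that of all tested genes was -0.02. DESeq2 called 7 of the 10 and 32.3% of all genes at the same adjusted p. The study's own rule was stricter, with a threshold of 0.01 for the adjusted p and of 1 for the size of the log2 fold change. By this rule edgeR called 0 of the 10 and 0.125% of all genes, and DESeq2 called 2 of the 10 and 11.9% of all genes. By edgeR, 8 of the 10 had an unadjusted p under 0.05, as did 6852 of all 16807 tested genes. The count of 6 changed with the library left out. It was 0 without YT-FF 1, 0 without YT-FF 2, 3 without YT-FF 3 and 3 without YT-AKO 3, when 0%, 0.0117%, 7.06% and 15.3% of all genes were called. Without YT-AKO 1 it was 5 (21% of all genes) and without YT-AKO 2 it was 8 (30.8%). In both fits with a count of 0, 6 of the 10 genes had an unadjusted p under 0.05. So did 4665 of all 17183 tested genes without YT-FF 1 and 4507 of all 17140 without YT-FF 2.

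**Figure D1:**
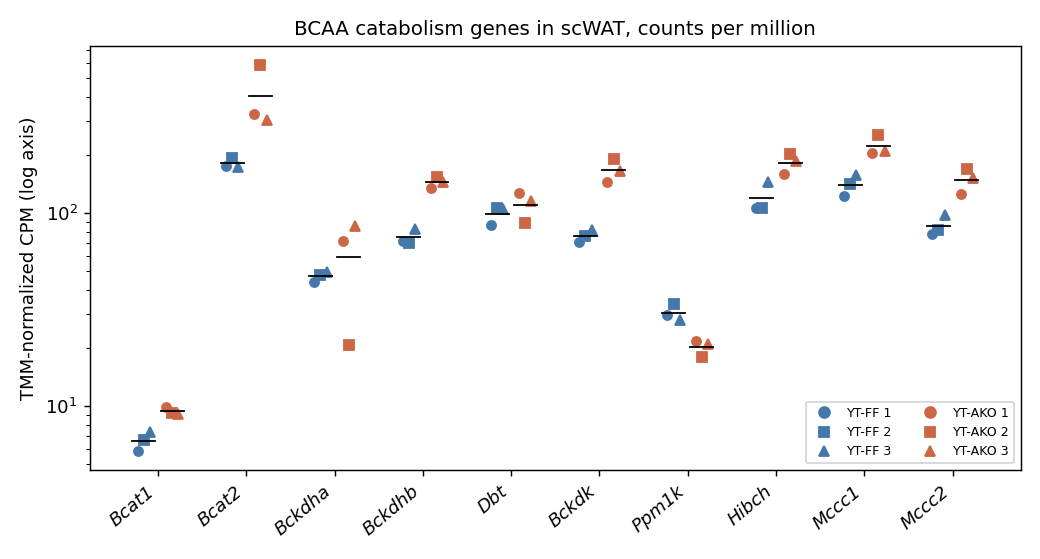
Level of each of the 10 genes in each library in CPM (fragment counts scaled to library size with TMM factors), 3 YT-FF libraries in blue and 3 labelled YT-AKO in orange, with replicate 1 as a circle, 2 as a square and 3 as a triangle and the mean as a black bar. The groups of *Bckdk*, *Bcat2* and *Bckdhb* lie apart with YT-AKO higher, those of *Ppm1k* lie apart with YT-AKO lower, and those of *Bckdha* and *Dbt* overlap.

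**Figure D2:**
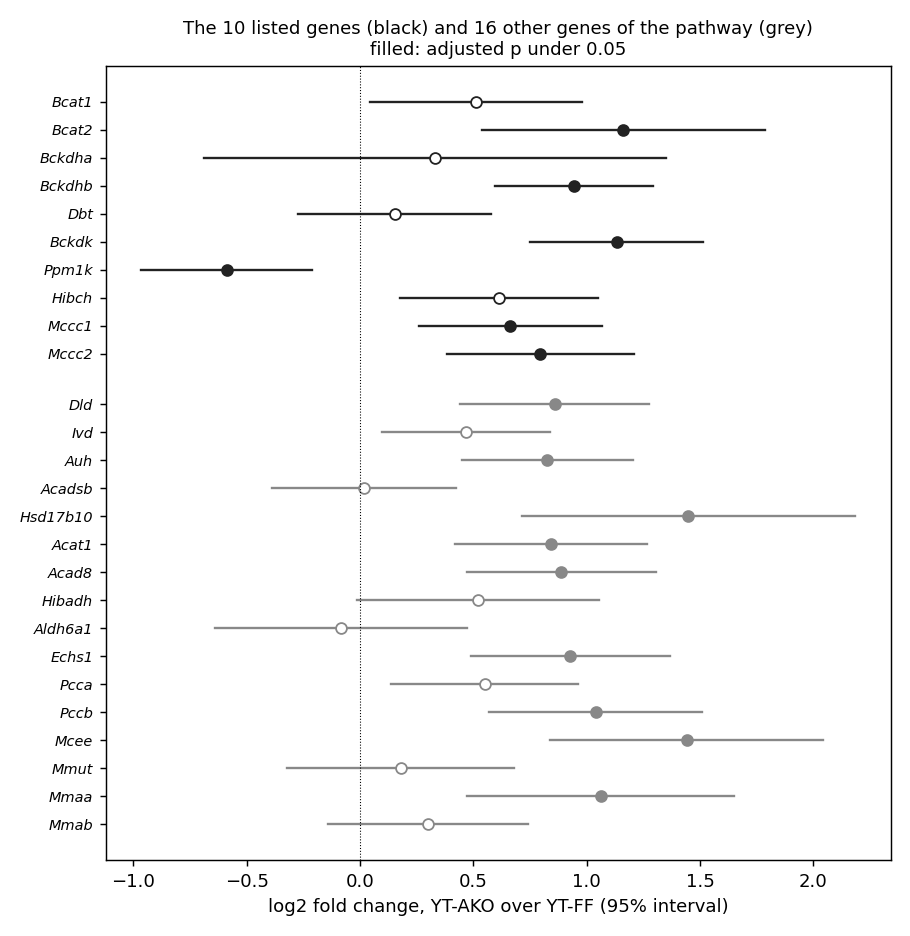
Log2 fold change, YT-AKO minus YT-FF, of the 10 genes (black) and of 16 other genes of the pathway (grey), with 95% intervals from edgeR. Filled points had an adjusted p under 0.05, and *Ppm1k* is the filled point to the left of 0.

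The first step of the pathway is carried by the mitochondrial aminotransferase *Bcat2* and its cytosolic counterpart *Bcat1*. *Bcat2* (chr7:45570153-45589711, in mm10 as for all genes here) had 177, 193 and 173 CPM in YT-FF and 326, 585 and 305 in the libraries labelled YT-AKO. The groups did not overlap, and YT-AKO 2 lay far above the other libraries of its group. The log2 fold change was 1.16 (SE 0.27), a 2.24-fold rise, with an adjusted p of 0.0275 by edgeR with Benjamini-Hochberg adjustment. When a library was left out it ran from 0.80, without YT-AKO 2, to 1.34, without YT-AKO 3. *Bcat2* was called in 3 of those 6 fits, with an adjusted p of up to 0.125 by the same test. *Bcat1* (chr6:144993835-145076184) had counts of 138, 151 and 142 in YT-FF against 171, 157 and 154 in YT-AKO. At 5.88 to 7.31 CPM against 9.10 to 9.94 the groups did not overlap, but its log2 fold change of 0.51 (SE 0.20) had an adjusted p of 0.098 by edgeR with Benjamini-Hochberg adjustment. With the correction for gene length it was 0.93 (adjusted p = 0.0364 by the same test). *Bcat2* therefore held nearly all counts of the aminotransferases. Per kilobase of exon, *Bcat2* was 71.8, 69.7 and 56.6 times *Bcat1* in YT-FF and 78.3, 151 and 80.1 times in YT-AKO.

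The BCKDH complex has a decarboxylase, E1, made of alpha (*Bckdha*) and beta (*Bckdhb*) subunits, a transacylase core (*Dbt*) and a shared dehydrogenase (*Dld*). *Bckdhb* (chr9:83925145-84124240) had 71.9, 70.3 and 83.2 CPM in YT-FF and 135, 154 and 144 in YT-AKO. Every library labelled YT-AKO was above every YT-FF library, and the libraries of each group were close together. Its log2 fold change was 0.94 (SE 0.15), a 1.92-fold rise, with an adjusted p of 0.0177 by edgeR with Benjamini-Hochberg adjustment. *Bckdha* (chr7:25629946-25658981) had 44.2, 47.9 and 49.7 CPM in YT-FF and 71.8, 20.8 and 85.7 in YT-AKO. In YT-AKO 1 and 3 it was above every YT-FF library, and in YT-AKO 2 it was below them all. The log2 fold change was 0.33 with a 95% interval of -0.69 to 1.35 and an adjusted p of 0.596, and without YT-AKO 2 it was 0.73 with an adjusted p of 0.00561, both by edgeR with Benjamini-Hochberg adjustment. Of the exon bases of *Bckdha*, 61.7% are also exons of *B3gnt8* on the opposite strand, and fragments that touched both genes were not counted. *B3gnt8*, a glycosyltransferase gene, had counts of 391, 280 and 236 in YT-FF against 181, 435 and 264 in YT-AKO, the highest in YT-AKO 2. Whether the overlap had a part in the low *Bckdha* count of YT-AKO 2 was not tested. *Dbt* (chr3:116513070-116549981) had 86.6, 107 and 105 CPM in YT-FF and 127, 89.1 and 115 in YT-AKO, and the groups overlapped. Its log2 fold change was 0.15 with a 95% interval of -0.27 to 0.58 (adjusted p = 0.555 by edgeR with Benjamini-Hochberg adjustment), and a difference was not detectable beyond the spread between libraries. *Dld*, which also serves pyruvate dehydrogenase and other complexes, rose by a log2 fold change of 0.86 (adjusted p = 0.0231 by edgeR with Benjamini-Hochberg adjustment).

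The kinase and the phosphatase of the complex moved in opposite directions. *Bckdk* (chr7:127904082-127910221) had 70.8, 76.4 and 82.0 CPM in YT-FF and 145, 191 and 166 in YT-AKO, with no overlap. Its log2 fold change was 1.13 (SE 0.17), a 2.19-fold rise, with an adjusted p of 0.0171 by edgeR with Benjamini-Hochberg adjustment. *Ppm1k* (chr6:57506502-57535468) had 29.5, 33.7 and 28.0 CPM in YT-FF and 21.6, 18.0 and 21.0 in YT-AKO. Every YT-AKO library was lower than every YT-FF library. Its log2 fold change was -0.59 (SE 0.16), 1.5-fold lower, with an adjusted p of 0.0405 by edgeR with Benjamini-Hochberg adjustment. The log2 fold change was -0.64 to -0.51 when a library was left out. The call was lost in 5 of those 6 fits, with an adjusted p of up to 0.178, and with a correction for gene length (log2 fold change -0.37, adjusted p = 0.109), all by edgeR with Benjamini-Hochberg adjustment. *Bckdk* stayed above YT-FF by 1.03 to 1.24 on the log2 scale whichever library was left out, and was called in 4 of those 6 fits.

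The ratio of the kinase to the phosphatase, in counts per kilobase of exon, was 3.91, 3.69 and 4.78 in YT-FF and 10.9, 17.3 and 12.9 in YT-AKO. Being taken within each library, it does not depend on the scaling between libraries, but it is not corrected for the trend with gene length. *Bckdk* has 3695 exon bases and *Ppm1k* 6022. With the length correction their log2 fold changes were 1.16 and -0.37. The uncorrected ratio was 3.28-fold higher in YT-AKO, a difference of 1.71 on the log2 scale, and 1.54 to 1.86 when a library was left out. With 3 against 3 libraries the two-sided exact permutation test cannot give a p below 0.1, which this ratio reached (0.167 with Benjamini-Hochberg adjustment over 5 ratios). The ratios of *Bcat2* to *Bcat1* and of *Bckdha* to *Bckdhb* also did not overlap between the groups, with log2 differences of 0.58 and -0.85 and the same exact p of 0.1. Both moved with YT-AKO 2, without which the log2 difference of *Bcat2* to *Bcat1* was 0.27. *Bckdha* was 0.584, 0.649 and 0.569 times *Bckdhb* in YT-FF and 0.506, 0.128 and 0.565 times in YT-AKO, and without YT-AKO 2 the log2 difference was -0.17. *Dbt* to *Bckdha* overlapped between the groups (log2 difference 0.05, exact p = 1), and so did *Mccc1* to *Mccc2* (log2 difference -0.13, exact p = 0.3).

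**Figure D3:**
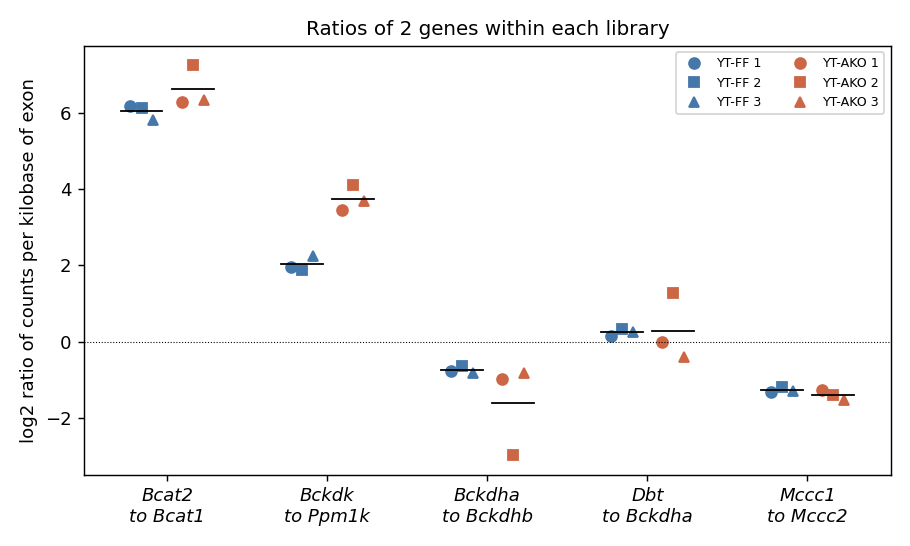
Log2 ratio of each pair of genes in each library, from counts per kilobase of exon, 3 YT-FF libraries in blue and 3 labelled YT-AKO in orange, marked by replicate. *Bckdk* to *Ppm1k* has a mean log2 ratio of 2.04 in YT-FF and 3.75 in YT-AKO. Before the log2, these ratios are 3.69 to 4.78 in YT-FF and 10.9 to 17.3 in YT-AKO. The low orange square of *Bckdha* to *Bckdhb* is YT-AKO 2.

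Beyond the complex, the 3 other genes serve valine and leucine. *Mccc1* and *Mccc2* encode the alpha, biotin-carrying, and beta subunits of methylcrotonyl-CoA carboxylase of leucine breakdown. *Mccc2* (chr13:99948530-100015639) had 78.3, 81.4 and 98.0 CPM in YT-FF and 125, 169 and 153 in YT-AKO, with no overlap, and rose by a log2 fold change of 0.80 (adjusted p = 0.026 by edgeR with Benjamini-Hochberg adjustment). *Mccc1* (chr3:35959312-36000678) had 123, 141 and 158 CPM in YT-FF and 204, 254 and 209 in YT-AKO, also with no overlap, and rose by 0.66 (adjusted p = 0.036 by edgeR with Benjamini-Hochberg adjustment). For both subunits, the lowest library labelled YT-AKO was above the highest of YT-FF. *Hibch* (chr1:52844929-52920986), a hydrolase of valine breakdown, had 106, 107 and 145 CPM in YT-FF and 160, 202 and 185 in YT-AKO, with no overlap. Its log2 fold change of 0.61 (SE 0.19) had an adjusted p of 0.0526 by edgeR with Benjamini-Hochberg adjustment, and it was called by DESeq2 (adjusted p = 0.0206).

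In CPM, 7 of the 10 genes did not overlap with YT-AKO higher, 1 did not overlap with YT-AKO lower and 2 overlapped, against 25.7% of all tested genes with no overlap and YT-AKO higher and 25.8% with YT-AKO lower. YT-AKO 2 held the highest CPM of the 6 libraries for 6 of the 10 genes. Its TMM factor was the lowest of the libraries, at 0.777. The share of all tested genes highest in YT-AKO 2 is not given here, so the count is not particular to the 10 genes.

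Levels can be compared between genes only per length, in TPM (counts divided by summed exon length and scaled to the same sum in each library). In YT-FF the order from the top was *Bcat2* at 177 ± 18.1 TPM, *Bckdhb* at 158 ± 7.38, *Mccc2* at 116 ± 9.46, *Dbt* at 113 ± 13.2, *Bckdha* at 94.5 ± 5.11, *Bckdk* at 78.4 ± 4.23, *Hibch* at 74.3 ± 10.4, *Mccc1* at 48.7 ± 4.83, *Ppm1k* at 19.2 ± 2.71 and *Bcat1* at 2.69 ± 0.228 (SD, n = 3 for each). *Bcat2* and *Bckdhb*, *Mccc2* and *Dbt*, *Dbt* and *Bckdha*, and *Bckdk* and *Hibch* were neighbours whose libraries overlapped. Over the exon bases that no other gene shares, *Bckdha* came first in YT-FF at 247 ± 13.3 TPM (SD, n = 3). The place of *Bckdha* among the subunits therefore depended on how its shared exons were treated.

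**Figure D4:**
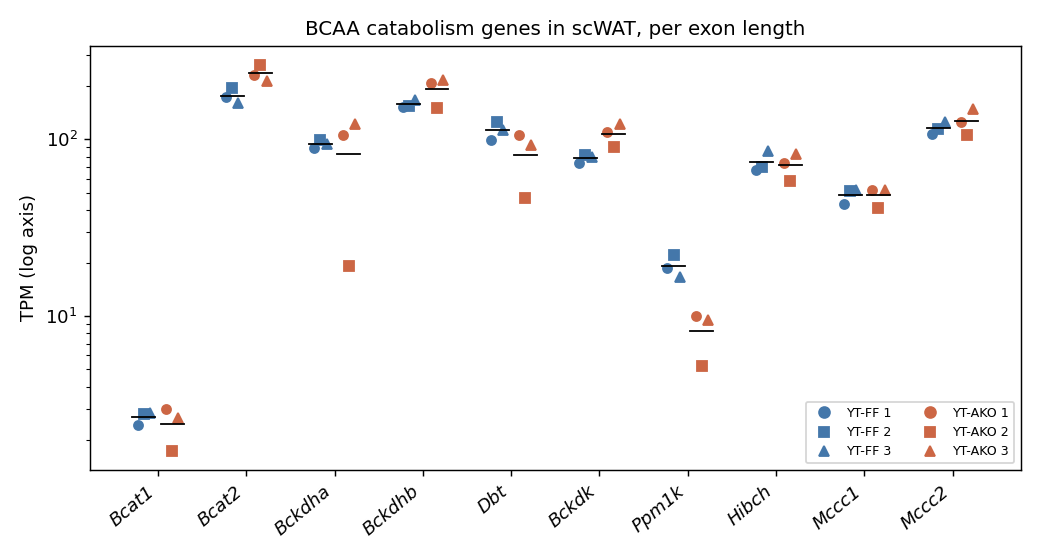
Level of each gene in each library in TPM on a log axis, 3 YT-FF libraries in blue and 3 labelled YT-AKO in orange, marked by replicate with the mean as a black bar. *Bcat2* is highest in YT-FF at 177 ± 18.1 TPM and *Bcat1* is lowest at 2.69 ± 0.228 (SD, n = 3), and most groups overlap on this scale.

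The direction of some genes depended on the scale. The median log2 difference of all tested genes was -0.02 with TMM factors, -0.34 with library totals alone and -0.66 in TPM, and 9, 8 and 4 of the 10 genes lay above 0 on these scales. Relative to those medians, 9 of the 10 lay above and *Ppm1k* below on each of the 3 scales. A change of scale moves most genes by a similar amount, which the median removes. *Bckdk*, for example, lay 1.15, 1.14 and 1.12 above the medians. The 3 scales are therefore not separate tests of direction. In TPM, *Bckdk* was 73.6, 81.6 and 80.0 in YT-FF and 110, 90.6 and 122 in YT-AKO, *Bcat2* was 174, 196 and 160 against 233, 263 and 213, and *Ppm1k* was 18.8, 22.1 and 16.7 against 10.01, 5.25 and 9.47. These 3 genes alone of the 10 did not overlap in TPM, where 7.52% of all tested genes had no overlap with YT-AKO higher and 54.5% with YT-AKO lower. *Bcat1*, *Bckdha*, *Dbt*, *Hibch* and *Mccc1* had log2 ratios of mean TPM of -0.13, -0.20, -0.46, -0.05 and -0.01. YT-AKO 2 held the lowest TPM of the 6 libraries for 8 of the 10 genes. The share of all tested genes lowest in YT-AKO 2 is not given here, so this count is not particular to the 10 genes either.

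**Figure D5:**
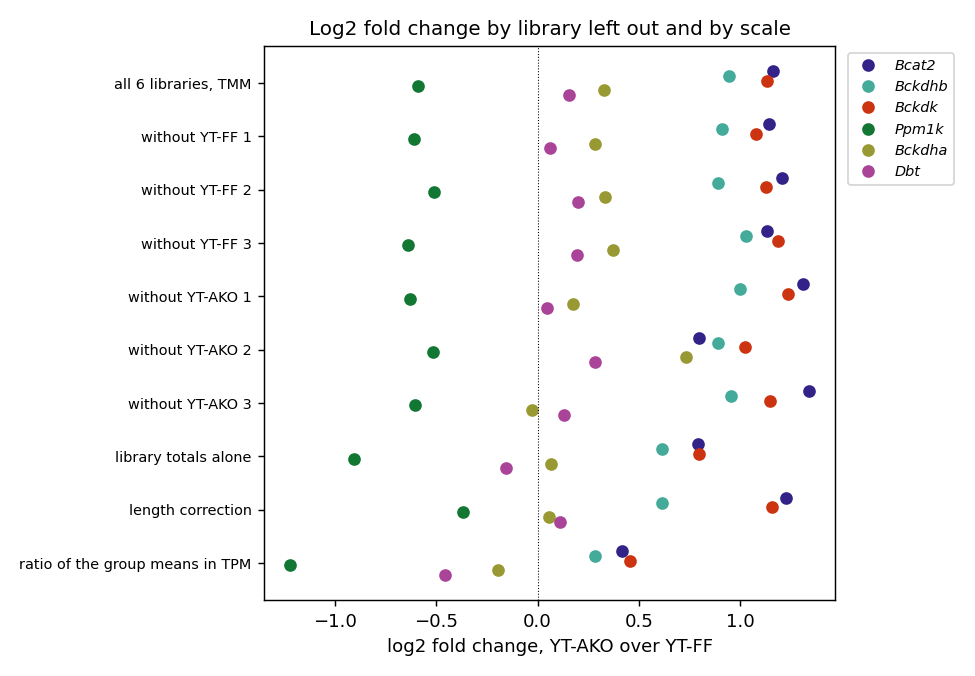
Log2 fold change, YT-AKO minus YT-FF, of *Bcat2*, *Bckdhb*, *Bckdk*, *Ppm1k*, *Bckdha* and *Dbt* in 10 settings. These are all libraries with TMM factors, each library left out in turn, library totals alone, the length correction and the ratio of group means in TPM. *Bcat2*, *Bckdhb* and *Bckdk* lie above 0 and *Ppm1k* below 0 in each. *Dbt* crosses 0 with library totals alone, at -0.15, and in TPM, at -0.46. *Bckdha* crosses 0 without YT-AKO 3, at -0.028, and in TPM, at -0.20.

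Of 17 other genes of the pathway, 10 were called, all higher, with a median log2 fold change of 0.84. Of all tested genes, 21.6% were called, 12.6% higher. Among the genes of isoleucine breakdown, *Hsd17b10*, a dehydrogenase, rose by 1.45 (adjusted p = 0.0249) and *Acat1*, a thiolase, by 0.84 (adjusted p = 0.0243), by edgeR with Benjamini-Hochberg adjustment. Of the genes that turn propionyl-CoA into succinyl-CoA, *Mcee*, the epimerase, rose by 1.44 (adjusted p = 0.0185) and *Pccb*, a carboxylase subunit, by 1.04 (adjusted p = 0.0205), by edgeR with Benjamini-Hochberg adjustment. The called genes also included *Dld*, *Auh*, *Acad8*, *Echs1* and *Mmaa*, at 0.83 to 1.06. The 7 that were not called were the leucine enzyme *Ivd* (0.47), the isoleucine enzyme *Acadsb* (0.02), the valine enzymes *Hibadh* (0.52) and *Aldh6a1* (-0.08), and *Pcca* (0.55), *Mmut* (0.18) and *Mmab* (0.30), which are 3 of the 6 genes of propionyl-CoA use. The count of 10 was 0 without YT-FF 1 (0% of all genes called), 0 without YT-FF 2 (0.0117%) and 14 without YT-AKO 2 (30.8%). In both fits with a count of 0, 10 of the 17 had an unadjusted p under 0.05. So did 4665 of all 17183 tested genes without YT-FF 1 and 4507 of all 17140 without YT-FF 2. The count was 12 with DESeq2, when 32.3% of all genes were called.

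Of 8 genes for uptake and mitochondrial transport of these amino acids, 2 were called, which is near the share of 21.6% of all tested genes. *Slc7a5*, the light chain of a neutral amino acid carrier of the cell surface, fell by 0.96 on the log2 scale (adjusted p = 0.04), whereas *Slc3a2*, its heavy chain, rose by 0.72 (adjusted p = 0.0258), by edgeR with Benjamini-Hochberg adjustment. *Slc25a44*, a mitochondrial branched-chain amino acid carrier, had a log2 fold change of 0.08 (adjusted p = 0.811 by edgeR with Benjamini-Hochberg adjustment). None of the 3 biotin genes was called. Of 5 regulators, *Klf15*, a transcription factor known to act on amino acid breakdown, and *Esrra*, a nuclear receptor of mitochondrial genes, rose by 0.92 and 0.61 (adjusted p = 0.0286 and 0.038 by edgeR with Benjamini-Hochberg adjustment). The other regulators, *Ppargc1a* (0.02), *Mlxipl* (-0.03) and *Ppara* (-0.36), were not called. Of 12 genes of the related pyruvate and oxoglutarate dehydrogenase complexes 5 were called, all higher, against 12.6% of all tested genes called higher. They ran from 0.85 for *Ogdh* to 1.29 for *Pdhb*, with *Dlat*, *Pdhx* and the kinase *Pdk2* between them.

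The genes with profiles over the 6 libraries nearest to the mean profile of the 10 were *Sec13*, *Xpnpep1*, *Hgsnat*, *Hsd17b11* and *Ipo13*, at a root mean square distance of 0.0239 to 0.0458 in log2 CPM centred on each gene's mean. The 10 genes themselves lay farther from that mean profile, from 0.064 for *Bcat1* to 0.656 for *Bckdha*. Nearness to the mean profile is therefore not nearness to each of the 10.

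Markers of several cell types moved with the genotype as well. Of all tested genes, 12.6% were called higher and 9.01% lower, and the counts below stand beside these shares. The summed level of the 10 genes was 793 to 928 CPM in YT-FF and 1326 to 1693 in YT-AKO. That of 8 adipocyte genes was 12253 to 17832 and 20829 to 33099 CPM, with 3 called higher (*Fabp4*, *Lipe* and *Pnpla2*). *Fabp4* held much of this sum, with a mean of 5205 CPM in YT-FF and 13197 in YT-AKO. The 5 adipocyte genes not called had log2 fold changes from -0.13 for *Lep* to 0.43 for *Adipoq*. The summed level of 6 beige and brown fat genes was 153 to 226 and 1644 to 3607 CPM, with all 6 called higher. Of 8 skeletal muscle genes, at 122 to 454 and 212 to 3350 CPM, 1 was called higher. The high muscle level was that of YT-AKO 1, with 496 in YT-AKO 2 and 212 in YT-AKO 3. Of 5 B cell genes, at 852 to 988 and 518 to 869 CPM, 2 were called lower, of 5 T cell genes, at 224 to 353 and 190 to 466, 1 lower, and of 4 endothelial genes, at 517 to 539 and 338 to 457, 1 lower. Of 6 macrophage genes, at 1048 to 1227 and 1389 to 1693 CPM, none was called, and of 5 fibroblast and progenitor genes, at 1654 to 2156 and 1813 to 2933, 1 was called higher and 1 lower. The 4 epithelial genes summed to 2.13 to 2.37 and 2.54 to 3.49 CPM, so these markers were near 0. The part of these cell types in the levels of the 10 genes was not tested.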

How the data were processed

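Groups of the 6 scWAT libraries follow the genotype in the labels. The authors aligned paired-end reads with HISAT2 (genome mm10) and summed fragments over the exons of GENCODE vM25 genes with featureCounts 2.0.1. The deposited values are raw counts per gene. Strand was ignored, and fragments with several alignments or shared by several genes were dropped, which lowers genes with overlapping exons. Totals of 17740987 to 21838493 counts set the precision. Of 55401 identifiers, 55141 were matched to symbols.

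Counts were tested in R 4.3.3 with edgeR 4.0.16 (TMM, filterByExpr with minimum count 10 and minimum total 15, quasi-likelihood test) and Benjamini-Hochberg adjustment over 16807 genes, after a check on simulated counts. CPM used TMM factors and TPM summed exon lengths. Ratios of 2 genes used exact permutation tests. Alternatives were DESeq2 1.42.0, limma-voom (limma 3.58.1), other scalings and filters, robust estimation, a replicate block, a length correction (spline with 6 degrees of freedom) and leaving out each library. TPM ratios, TPM over unshared exon bases and the length correction without YT-AKO 2 were added after the data were seen.

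The 10 genes and the other lists were chosen with earlier results of these data known. The text names the 10 genes, genes of the fixed lists as examples, the targeted genes and the 5 genes nearest in profile with a mean of at least 1 CPM. One gene of these lists is not reported here by name. *B3gnt8* was named after its values were seen.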

Additional observations from a re-analysis of the deposited data

How the results depend on the processing

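Of the 10 genes, 6 were called, and the counts were 7 with DESeq2, limma-voom, a minimum of 10 counts in every library or the length correction (32.3%, 21.6%, 26.7% and 14.2% of all genes called), 6 with upper-quartile scaling or robust estimation (21.7% and 21.5%), 5 without the filter (14.5%) and 4 with library totals alone (23.6%). When each library was left out the count ran from 0 to 8. With the replicate number as a block it was 0, and 0 with the block and the length correction, when 0.196% and 0.44% of all genes were called by edgeR. In each of these fits 7 of the 10 had an unadjusted p under 0.05. So did 5806 of all 16807 tested genes with the block and 5060 with the block and the length correction. For the 17 other pathway genes, 10 were called, 0 with the replicate block and 0 with the block and length correction (11 and 13 with an unadjusted p under 0.05), and from 0 to 14 when each library was left out. By the study's thresholds 0 of the 10 genes passed, against 2 with DESeq2 (11.9% of all genes), 2 without the filter (5.74%), 1 without YT-AKO 2 (5.44%), 1 with the length correction without YT-AKO 2 (3.65%), and 0 to 1 over the fits that left out a library. Deviations of same-numbered libraries correlated at 0.139, -0.134 and -0.0911. YT-FF 1 correlated best with its own number, and not every library did. Deviations from a group's own mean are not independent within the group, so this check cannot exclude a pairing by number.

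Directions that turned were those of *Bcat1* (-0.13), *Bckdha* (-0.20), *Dbt* (-0.46), *Hibch* (-0.052) and *Mccc1* (-0.013) in TPM, of *Ivd* (-0.19), *Acadsb* (-0.60), *Hibadh* (-0.07), *Pcca* (-0.08), *Mmut* (-0.41) and *Mmab* (-0.30), also in TPM, *Dbt* (-0.15), *Acadsb* (-0.29), *Mmut* (-0.12) and *Mmab* (-0.0028) with library totals alone, and *Bckdha* with the length correction and block (-0.18). *Acadsb* turned with upper-quartile scaling (-0.025) and with a minimum of 10 counts in every library (-0.014). *Aldh6a1* turned with the length correction (0.10), that and the block (0.088), and the length correction without YT-AKO 2 (0.25). When a library was left out, *Bckdha* ran from -0.028 to 0.73, *Acadsb* from -0.076 to 0.12 and *Aldh6a1* from -0.23 to 0.12. The log2 difference of *Dbt* to *Bckdha* turned to -0.44 without YT-AKO 2 and ran up to 0.40 without another library. The cause was not tested. *Bcat1* had 138 to 171 counts a library, the lowest depth of the 10 genes.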
